A study of Homo sapiens with 12 samples.

Results

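The keratin, keratin-associated protein (KRTAP) and filaggrin genes were examined in SK-MEL-2, an established human melanoma line with mutant NRAS. Members were all genes whose symbol is KRT, KRTAP or FLG in the pattern of these families, except KRTAP21-1, which was left out. With 1 probe set per gene this gave 134 of the 14582 genes measured. They comprised 16 type I and 18 type II epithelial keratins, 10 type I and 3 type II hair keratins, 37 high-sulphur, 29 ultrahigh-sulphur and 17 high glycine-tyrosine KRTAPs, and FLG with FLG2. The pseudogene KRT42P and the antisense RNA KRTAP5-AS1 carry symbols of the same pattern and were kept. Another 48 RefSeq genes with such symbols were not analysed here. Of the 134 members, 46 (34.3%) exceeded the background of the arrays in at least 1 treatment group, against 77.7% of all genes. With the background taken from the dimmest 50% of genes, 19 members exceeded it.

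Treatments lasted 24 hours, and each of the 4 groups was measured on 3 Affymetrix arrays, 12 in all. Control cells received the vehicle DMSO. The DT group received 100 nM dabrafenib, a RAF inhibitor, together with 10 nM trametinib, a MEK inhibitor. The E group received 1 µM entinostat, an inhibitor of class I histone deacetylases, and the DTE group received the 3 agents at the same doses. Every group was the same cell line, a single model. Replicates are described as biological in the titles and as technical triplicates in the series text. The p-values therefore cover only the spread between these arrays, whose number limits the precision.

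Keratins form the intermediate filaments of epithelial cells as obligate pairs of an acidic type I and a basic type II chain. Hair keratins are cross-linked by cysteine-rich or glycine-tyrosine-rich KRTAPs in the hair shaft, and filaggrin bundles keratin filaments in the cornifying layer of the epidermis. Melanocytes sit among keratinocytes but are themselves filled with vimentin filaments, so these genes are mostly known as products of the neighbouring cells.

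The deposited intensities differed in level between groups, with array medians from 22.9 in DTE to 51.6 in E. Across genes, which are no independent replicates, r was 0.991 to 0.994 within groups and 0.951 to 0.979 between them. Differences below are log2 differences between group means, with their standard error (SE) and adjusted p from a limma fit over all genes. The value marked quantile is the same difference after quantile normalization, which gives all arrays the same distribution. In deposited values the median gene differed from DMSO by -0.12 in DT, 0.14 in E and -0.54 in DTE. After quantile normalization these medians were 0.00, -0.04 and -0.03. Fewer cells of a kind and less RNA per cell cannot be told apart in such bulk samples.

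Promoter sequence is shown for 3 members, the 250 bases before the transcript start in RefSeq (GRCh38.p14), because these genes were called in the same direction in all 3 treatments and under both scalings given below. FLG (chr1:152325240-152325489, minus strand) and KRTAP2-3 (chr17:41060115-41060364, minus strand) rose in every treatment, and KRT27 (chr17:40782551-40782800, minus strand) was lower in every treatment. Capitals mark matches to the letters TGANTCA of an AP-1 site and to the TATA box letters TATAAA.
FLG: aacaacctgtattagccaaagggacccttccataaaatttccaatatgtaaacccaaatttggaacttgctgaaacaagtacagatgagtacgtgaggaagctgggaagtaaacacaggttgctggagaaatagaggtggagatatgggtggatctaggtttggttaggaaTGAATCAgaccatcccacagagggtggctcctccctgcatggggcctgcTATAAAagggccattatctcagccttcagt
KRTAP2-3: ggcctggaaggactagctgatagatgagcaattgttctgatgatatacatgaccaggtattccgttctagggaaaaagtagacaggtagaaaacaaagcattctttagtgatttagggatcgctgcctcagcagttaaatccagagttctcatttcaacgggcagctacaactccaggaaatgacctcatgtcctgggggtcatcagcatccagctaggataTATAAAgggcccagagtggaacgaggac
KRT27: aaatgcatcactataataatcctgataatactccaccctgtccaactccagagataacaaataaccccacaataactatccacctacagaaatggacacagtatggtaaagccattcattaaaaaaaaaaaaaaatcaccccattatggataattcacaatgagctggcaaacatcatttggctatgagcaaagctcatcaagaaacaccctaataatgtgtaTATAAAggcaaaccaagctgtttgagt
The FLG window held 1 match to TGANTCA, starting at -79, and 1 to TATAAA, starting at -30. KRTAP2-3 held TATAAA at -28 and KRT27 at -27, and neither held TGANTCA. A match is a description of letters and not of a bound site.

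The background was estimated for each array. A gene was taken as above it in a group when the group mean was over a level set at the 95th percentile among the dimmest 25% of genes, which was between 11.1 and 16.2 on single arrays. By this rule DMSO and DT each had 41 members above background, E had 40 and DTE had 38, and 35 members were above it in all 4 groups. The median over members of the highest group mean (as means of log2 values) was 10, against 49.1 over all genes. Just inside the limit were KRTAP27-1, KRTAP10-8 and KRTAP1-5, with highest group means of 13.1, 14.7 and 14.1 on that scale. Just outside it were KRT32, KRT33B and KRTAP1-1, at 12.8, 12.9 and 12.7. Of the high glycine-tyrosine KRTAPs 3 of 17 were above background, and of the type I epithelial keratins 7 of 16. The number was 6 of 18 for type II epithelial keratins, 14 of 37 for high-sulphur and 9 of 29 for ultrahigh-sulphur KRTAPs. Hair keratins were above background in 3 of 10 of type I and 1 of 3 of type II. FLG, KRT42P and KRTAP5-AS1 were above it, and FLG2 was not.

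**Figure D1:**
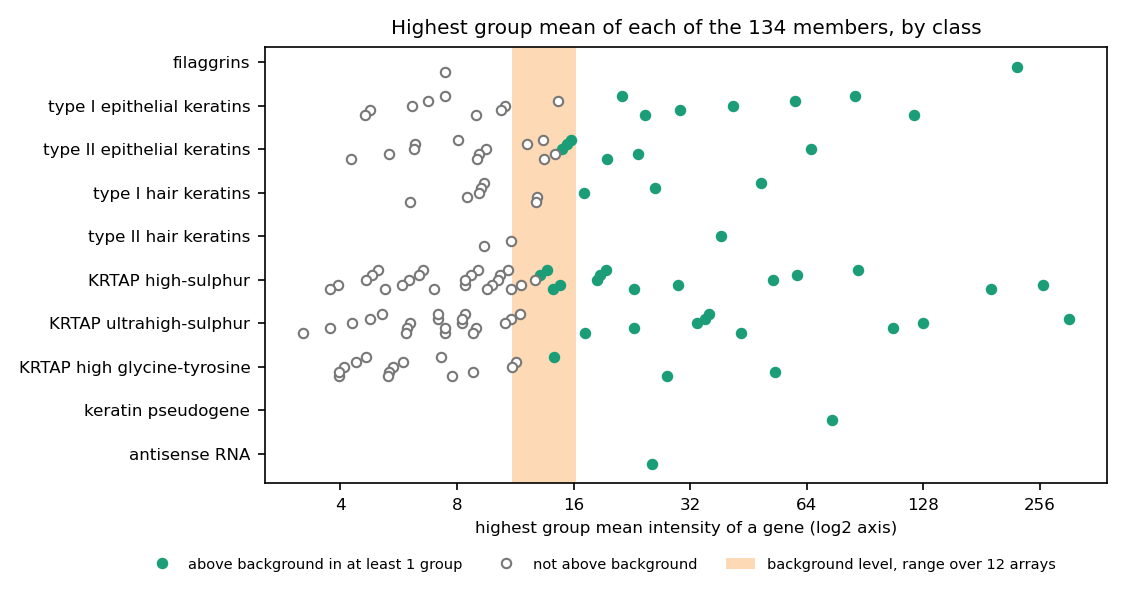
Highest of the 4 group mean intensities (log2 axis) of each of the 134 members, by class; filled points are the 46 members above background in at least 1 group. The band is the range of the background level over the 12 arrays, 11.1 to 16.2, and most open points lie to its left.

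The other 88 members had array values between 2.61 and 17.6. Among them were KRT5, KRT1 and KRT10 of the epidermis, while KRT14, KRT15 and KRT16, described further on, were above background in all 4 groups. KRT5, the type II partner of KRT14 in basal keratinocytes, had group means of 5.63 in DMSO, 6.21 in DT, 5.89 in E and 5.98 with DTE. KRT1 was at 9.04, 8.14, 7.49 and 7.17 in the same order and KRT10, its partner in the spinous layer, at 7.56, 8.97, 6.82 and 6.33. FLG2, the relative of filaggrin, was at 6.82, 7.55, 7.39 and 6.8. None of these 4 genes was above background on any array. Their adjusted p-values against DMSO in deposited values were 0.04 or higher, the lowest being that of KRT1 in DTE (-0.33, SE 0.14). After quantile normalization KRT1 was called lower in E (-0.41, adjusted p = 0.018). KRT10 was then called higher in DT (0.23) and lower in E (-0.27) and DTE (-0.21), with adjusted p from 0.021 to 0.045. Such differences lie within the background.

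In DT, 6 members were higher and 7 lower than in DMSO (limma, adjusted p under 0.05), or 4.48% and 5.22% of the members, where 4.72% and 23.1% of all genes were called. After quantile normalization 11 members were higher and 5 lower, against 15.1% and 14.6% of all genes, and after centring each array on its median gene 21 were higher and 5 lower, against 15.7% and 17.7%. The members called in both the deposited and the quantile-normalized values, all in the same direction, were FLG, KRT14, KRT23, KRT33B, KRTAP2-3 and KRTAP5-6 among the higher, and KRT15, KRT16, KRT18, KRT27 and KRTAP10-10 among the lower. The median member differed by -0.02.

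In E, 16 members were higher and 1 lower than in DMSO, where 20.8% and 4.81% of all genes were called. Without the second DMSO array 10 members were called, and with array weights 38 were higher and 9 lower, beside 5150 and 2076 genes. After quantile normalization 7 were higher and 6 lower, against 15.1% and 16.3% of all genes, and after median centring 5 and 15, against 11.7% and 26.1%. Called in both the deposited and the quantile-normalized values were FLG, KRT18, KRT20, KRTAP2-3, KRTAP4-8 and KRTAP9-2, all higher, and KRT27, lower. KRTAP4-8 (5.94 in E against 4.32 in DMSO) was at background in every group, and KRT20 (14.6 against 8.89) was above it on 1 E array only. The median member differed by 0.14, as did the median gene.

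In DTE, 3 members were higher and 35 lower than in DMSO, where 4.26% and 60.8% of all genes were called. After quantile normalization 8 were higher and 15 lower, against 20.5% and 22.4% of all genes, and after median centring 82 were higher and 5 lower, against 37.8% and 31.7%. The 3 higher members in deposited values were FLG, KRTAP2-3 and KRTAP11-1, of which KRTAP11-1 (9.64 against 7.62) was at background. Of the members called in both the deposited and the quantile-normalized values, 17 had the same direction and 4 the opposite one, KRT18, KRTAP5-1, KRTAP5-7 and KRTAP9-2, which were lower in deposited values and higher after quantile normalization. The same-direction members below DMSO included KRT15, KRT27, KRT85, KRTAP10-10, KRTAP17-1, KRTAP5-AS1 and KRTAP6-2.

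Adding entinostat to dabrafenib and trametinib (DTE against DT) left 1 member higher, FLG, and 30 lower, where 4.09% and 54% of all genes were called. The quantile-normalized values gave 3 and 11, against 16.4% and 17.9% of all genes, and median centring 37 and 8, against 24.1% and 25.6%. Array weights gave 3 and 45, beside 724 and 9015 genes. Adding dabrafenib and trametinib to entinostat (DTE against E) left 1 member higher, again FLG, and 65 lower, where 0.247% and 78.5% of all genes were called. The quantile-normalized counts were 3 and 4, against 10.1% and 9.99% of all genes, and the median-centred ones 97 and 2, against 36.2% and 19.3%. With genes at background left out of the test, 1 of the 46 members tested was higher and 41 were lower, beside 22 and 10718 of 11329 genes. Both comparisons use the DTE arrays.

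The interaction compares what entinostat adds in the presence of dabrafenib and trametinib (DTE minus DT) with what it adds alone (E minus DMSO), and is 0 where effects add in log2 units. It was called for 42 members, all below 0, where 62.5% of all genes were called below 0 and 0.206% above. After quantile normalization 1 member was above and 2 below, against 2.08% and 2.12% of all genes, and after median centring 29 and 4, against 12.8% and 4.58%. KRT23 and KRTAP2-3 were below 0 in both the deposited and the quantile-normalized values.

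**Figure D2:**
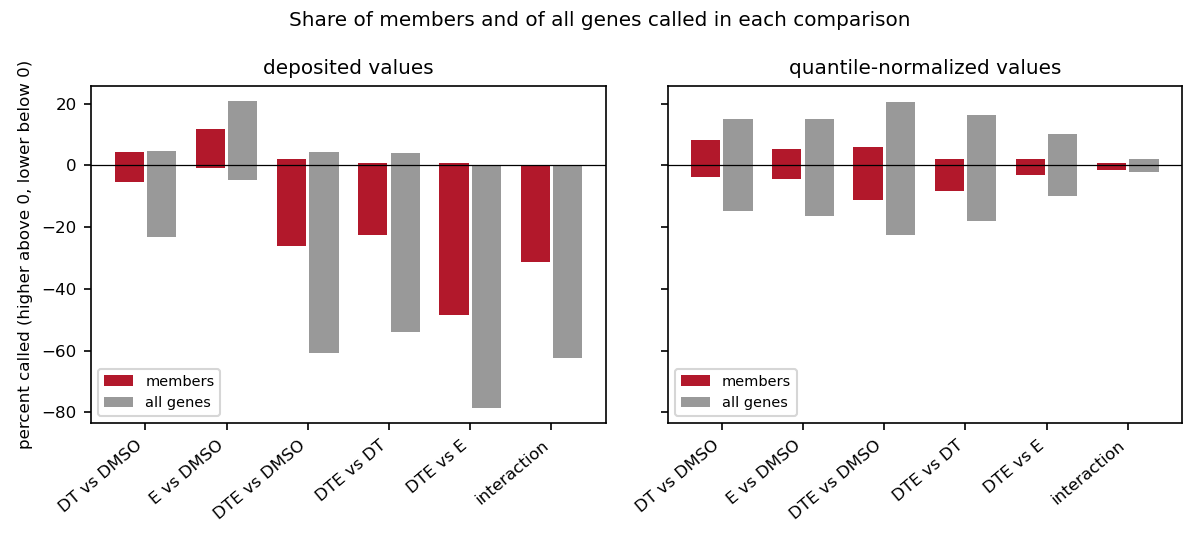
Percent of the 134 members (red) and of all 14582 genes (grey) called higher (above 0) or lower (below 0) in each of 6 comparisons, in deposited and in quantile-normalized values. In each comparison a smaller share of members than of genes was called lower, but 88 members were at background. With genes at background left out of the test, 7 of the 46 members and 3458 of 11329 genes were lower in DT in deposited values. These counts were 1 and 705 in E, and 27 and 8682 in DTE. They were 27 and 7814 in DTE against DT, 41 and 10718 in DTE against E, and 31 and 8965 in the interaction. For DTE the lower calls of members and genes shrink after quantile normalization.

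Filaggrin had the largest difference from DMSO of all members in E and in DTE. FLG encodes the large precursor that is cut into filaggrin units, which bundle keratin filaments and later give the amino acids that keep the skin moist. FLG intensities were 38, 30.8 and 36.9 on the DMSO arrays, 61.7, 44.6 and 62.5 in DT, 176, 164 and 181 in E, and 223, 190 and 265 in DTE. The 4 groups did not overlap in deposited values, and every array was above background.
Against DMSO, FLG rose by 0.66 in DT (SE 0.16, adjusted p = 0.0021, 1.58-fold, quantile 0.81), by 2.31 in E (adjusted p = 1.0e-10, 4.95-fold, quantile 1.98) and by 2.67 in DTE (adjusted p = 4.0e-12, 6.38-fold, quantile 3.50). DTE exceeded DT by 2.01 (adjusted p = 1.3e-09, quantile 2.69). DTE exceeded E by 0.37 (adjusted p = 0.036, quantile 1.52), a call lost in deposited values without the first or the second E array or the first or the third DTE array (adjusted p from 0.05 to 0.2). The interaction of -0.30 did not pass (adjusted p = 0.24), and the quantile value of 0.71 did not either (adjusted p = 0.072).

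KRTAP2-3, a high-sulphur KRTAP of the hair cortex, rose in each treatment, least so in DTE in deposited values. KRTAP2-3 intensities were 65, 61.2 and 56.3 in DMSO, 213, 169 and 175 in DT, 251, 219 and 127 in E, and 114, 131 and 125 in DTE. All 9 treated arrays lay above the 3 DMSO arrays, and the E arrays were spread most, with the third E array at the level of DTE.
The gene rose by 1.61 in DT (SE 0.18, adjusted p = 3.5e-07, 3.04-fold, quantile 1.85), by 1.65 in E (adjusted p = 2.3e-07, 3.15-fold, quantile 1.45) and by 1.02 in DTE (adjusted p = 3.0e-05, 2.03-fold, quantile 1.99). The interaction was -2.24 (SE 0.26, adjusted p = 2.7e-06) in deposited values, -1.31 after quantile normalization (adjusted p = 0.049) and -1.51 after median centring (adjusted p = 0.01). In deposited values DTE lay 0.58 below DT and 0.63 below E, both called, the first not without the first DT array (adjusted p = 0.051), and after quantile normalization DTE lay 0.14 above DT and 0.54 above E, neither called. The close relatives KRTAP2-1, KRTAP2-2 and KRTAP2-4 were at background in every group, with group means between 4.24 and 7.01. Over the stretch that aligned, the 250 bases before KRTAP2-3 matched those of KRTAP2-1 at 44 of 53 bases, KRTAP2-2 at 65 of 75 and KRTAP2-4 at 61 of 73. Whether the probes of these genes bind each other's transcripts was not tested.

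**Figure D3:**
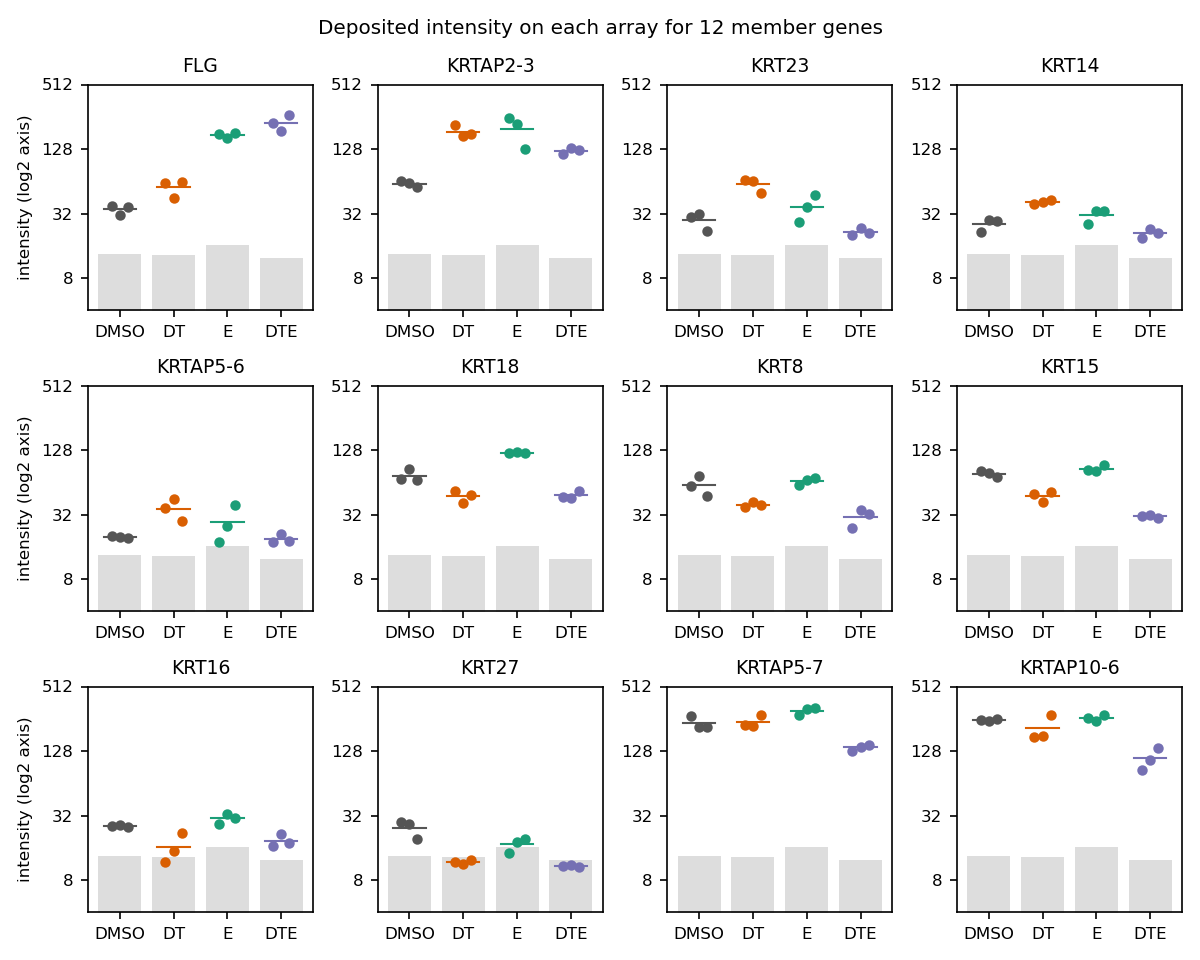
Deposited intensity (log2 axis) of 12 members on each of the 12 arrays, with the group mean as a line. The grey bar reaches up to the highest background level among the arrays of the group. FLG rises from DMSO (mean 35.2) through DT (56.3) and E (174) to DTE (226), KRT23 is highest in DT (60), and KRT27 lies within the background in DT and DTE.

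Among the type I epithelial keratins, KRT23 and KRT14 rose in DT. KRT23, a keratin of simple epithelia, had intensities of 29.9, 32 and 21.8 in DMSO, 65.4, 64.5 and 50.2 in DT, 27, 37.1 and 47.5 in E, and 20.4, 23.4 and 21.2 in DTE. The DT arrays lay above all others. KRT23 rose by 1.11 in DT (SE 0.18, adjusted p = 4.3e-05, 2.17-fold, quantile 1.24), and DTE lay 1.46 below DT (adjusted p = 6.8e-07, quantile -1.06, adjusted p = 6.8e-05). Differences from DMSO were 0.40 in E (adjusted p = 0.11) and -0.35 in DTE (adjusted p = 0.096). The interaction was -1.86 (SE 0.26, adjusted p = 2.1e-05), -1.14 after quantile normalization (adjusted p = 0.0061) and -1.13 after median centring.

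KRT14, the type I keratin of basal keratinocytes, was at 21.5, 28.1 and 27.2 in DMSO, 39.6, 41.2 and 43.1 in DT, 25.6, 34.1 and 33.8 in E, and 19.1, 23 and 21 in DTE. Its DT arrays lay above every other array. KRT14 rose by 0.70 in DT (SE 0.15, adjusted p = 7.9e-04, 1.62-fold, quantile 0.80), and DTE lay 0.98 below DT (adjusted p = 8.2e-06, quantile -0.60). Its partner KRT5 was at background, as given above.

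KRT15, another basal type I keratin and one of the hair bulge, fell under the MAPK inhibitors. KRT15 intensities were 81.9, 77.5 and 72.5 in DMSO, 49.4, 42 and 51.9 in DT, 83, 81.3 and 92.3 in E, and 31, 31.5 and 29.9 in DTE. The DT arrays lay below the DMSO arrays and the DTE arrays below those of DT. KRT15 fell by 0.70 in DT (SE 0.13, adjusted p = 2.4e-04, quantile -0.39) and by 1.33 in DTE (adjusted p = 7.1e-09, quantile -0.45). The difference between DTE and DT was -0.63 in deposited values (adjusted p = 3.1e-04) and -0.06 after quantile normalization (adjusted p = 0.67). In E it differed from DMSO by 0.15 (adjusted p = 0.46).

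KRT16, a type I keratin of wounded and hyperproliferative epidermis, was at 25.5, 26.4 and 25.2 in DMSO, 11.8, 14.9 and 21.9 in DT, 27, 33.4 and 30.1 in E, and 16.6, 21.7 and 17.7 in DTE. DT and DTE both lay below DMSO, and the first DT array was within the background. KRT16 fell by 0.72 in DT (SE 0.17, adjusted p = 0.0029, quantile -0.63). In DTE the difference was -0.47 (adjusted p = 0.021), which was not called without the second DMSO array, the first DTE array or the third DTE array and was -0.03 after quantile normalization.

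KRT27, a type I keratin of the inner root sheath of the hair follicle, was lower in every treatment. KRT27 intensities were 28, 26.8 and 19.2 in DMSO, 11.9, 11.2 and 12.4 in DT, 14.4, 18.2 and 19.2 in E, and 10.9, 11.1 and 10.6 in DTE. No DT or DTE array was above background, so the gene was at least 1.87-fold lower in DT (adjusted p = 1.2e-05) and at least 2.11-fold lower in DTE (adjusted p = 4.2e-07). These bounds were 1.77 and 1.76 after quantile normalization. In E, KRT27 fell by 0.51 (SE 0.15, adjusted p = 0.015, quantile -0.71, adjusted p = 1.7e-04), a call lost in deposited values without the first or the second DMSO array or the first E array. The third DMSO array, at 19.2, was level with the third E array.

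KRT19, the shortest type I keratin and one of simple epithelia, was at 15.6, 18 and 10.2 in DMSO, 15.7, 12.8 and 14.9 in DT, 16.7, 29.6 and 20 in E, and 10.7, 11.2 and 10.8 in DTE. It was above background on 2 DMSO, 2 DT, 3 E and no DTE arrays. The rise of 0.60 in E (adjusted p = 0.025) was not called without the third DMSO array or the second E array, and was 0.29 after quantile normalization (adjusted p = 0.27).

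KRT8 and KRT18 are the type II and type I partners of simple epithelia and also occur in some melanomas. KRT18 was at 68.5, 84.8 and 66.9 in DMSO, 53.2, 41.2 and 48.6 in DT, 119, 124 and 120 in E, and 47.1, 46.1 and 52.9 in DTE. The groups E, DMSO and DT did not overlap, and DTE lay among the DT arrays. KRT18 fell by 0.62 in DT (SE 0.14, adjusted p = 0.0015, quantile -0.32) and rose by 0.73 in E (adjusted p = 3.3e-04, 1.66-fold, quantile 0.55). In DTE the sign depended on the scaling, with -0.59 in deposited values (adjusted p = 7.6e-04), 0.39 after quantile normalization (adjusted p = 0.011) and 0.06 after median centring (adjusted p = 0.69).

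KRT8 was at 58.7, 73.8 and 47.3 in DMSO, 37.5, 42 and 39.2 in DT, 60.3, 67.4 and 69.7 in E, and 23.9, 35 and 32.7 in DTE. The DT arrays lay below all DMSO arrays, while the E arrays lay within their range. The difference in DT was -0.58 (SE 0.16, adjusted p = 0.0097), not called without the second DMSO array (adjusted p = 0.098) or after quantile normalization (-0.29, adjusted p = 0.16). In E it was 0.16 (adjusted p = 0.53), and in DTE -0.97 (adjusted p = 1.5e-05) with a quantile value of -0.15 (adjusted p = 0.44). KRT7, the type II keratin of glandular epithelia, was near 20 in DMSO and DT (20.1 and 20.3), at 23.7 in E and 15.9 in DTE, and was not called against DMSO. KRT80 (19.6 in E against 15.1) was called in E by 0.40, with a quantile value of 0.12 that was not. KRT71, KRT75 and KRT77, of the root sheath and eccrine duct, had group means between 9.1 and 15.8 and were not called against DMSO.

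The 2 brightest members were KRTAPs. KRTAP5-7, an ultrahigh-sulphur KRTAP, was at 274, 215 and 214 in DMSO, 224, 217 and 279 in DT, 277, 319 and 320 in E, and 129, 141 and 146 in DTE. Its DTE arrays lay below all others. The DTE difference was -0.75 (SE 0.14, adjusted p = 7.5e-05) in deposited values, 0.34 after quantile normalization (adjusted p = 0.019) and -0.10 after median centring (adjusted p = 0.42).
KRTAP10-6, a high-sulphur KRTAP, was at 252, 245 and 255 in DMSO, 172, 178 and 277 in DT, 263, 244 and 280 in E, and 85.4, 106 and 138 in DTE. The DTE arrays were again the lowest, by 1.22 against DMSO (SE 0.18, adjusted p = 1.7e-06), and the quantile value was -0.11 (adjusted p = 0.63).

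KRTAP5-1, KRTAP9-2 and KRTAP10-12 each had their highest mean in E and their lowest in DTE. KRTAP5-1, of the ultrahigh-sulphur group, was at 119, 95.4 and 78 in DMSO, 116, 127 and 132 in DT, 104, 142 and 142 in E, and 50.5, 72.4 and 68 in DTE. KRTAP9-2, of the same group, was at 87, 62.2 and 69.5 in DMSO, 80.6, 74.5 and 68.8 in DT, 92.8, 104 and 128 in E, and 47, 50.9 and 56.1 in DTE. KRTAP10-12, of the high-sulphur group, was at 65.2, 54.9 and 58 in DMSO, 74.3, 70.8 and 59.6 in DT, 81, 88.5 and 91.3 in E, and 36.5, 45.2 and 36.9 in DTE. The DTE arrays of each gene lay below its DMSO arrays. In DTE the deposited differences of these 3 genes were -0.61, -0.50 and -0.59, all called, and the quantile values were 0.43, 0.48 and 0.31, the first 2 called. KRTAP10-9, also high-sulphur, was at 60.4, 59.9 and 59.9 in DMSO, 47.6, 38.5 and 53.8 in DT, 47.1, 57.1 and 81.7 in E, and 35.3, 30.1 and 40.2 in DTE. Its deposited difference in DTE was -0.78, called, and its quantile value 0.09. In E, KRTAP9-2 rose by 0.57 (SE 0.15, adjusted p = 0.0068, quantile 0.39, adjusted p = 0.015), which was not called in deposited values without the second DMSO array (adjusted p = 0.054).

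KRTAP10-10 and KRTAP6-2 stayed below DMSO in DTE under both scalings. KRTAP10-10, of the high-sulphur group, was at 51.7, 54.2 and 43.5 in DMSO, 32.9, 23.1 and 35.4 in DT, 48.2, 58.3 and 51.4 in E, and 18.7, 25.5 and 21.4 in DTE. DT and DTE did not overlap with DMSO. It fell by 0.73 in DT (SE 0.16, adjusted p = 0.0015, quantile -0.50) and by 1.19 in DTE (adjusted p = 8.4e-07, quantile -0.56).
KRTAP6-2, of the high glycine-tyrosine group, was at 60.8, 49.3 and 50.3 in DMSO, 43.4, 30.2 and 38.6 in DT, 36, 35.9 and 49.8 in E, and 19.2, 19.9 and 20.1 in DTE. It fell by 1.43 in DTE (SE 0.16, adjusted p = 3.3e-08, 2.7-fold, quantile -0.82, adjusted p = 5.2e-05). In DT the difference of -0.53 (adjusted p = 0.014) was not called without the first DMSO array or the second DT array. In E it was -0.41 (adjusted p = 0.06), and -0.62 after quantile normalization (adjusted p = 9.1e-04).

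KRTAP5-6, of the ultrahigh-sulphur group, was higher in DT. KRTAP5-6 intensities were 20.2, 19.6 and 19.4 in DMSO, 36.9, 44.5 and 27.9 in DT, 17.9, 24.9 and 39.1 in E, and 17.6, 21.1 and 18.3 in DTE. The DT arrays lay above DMSO and DTE, and the E arrays ranged over both. It rose by 0.86 in DT (SE 0.20, adjusted p = 0.0022, 1.81-fold, quantile 0.94).
KRTAP5-2, of the same cluster, was at 36.1, 22.7 and 20.5 in DMSO, 19.5, 22.1 and 15.8 in DT, 43.6, 40.3 and 46.9 in E, and 14.4, 19.2 and 18.8 in DTE. The E arrays were highest. It rose by 0.76 in E in deposited values (SE 0.18, adjusted p = 0.0027), and the quantile value of 0.42 missed the threshold (adjusted p = 0.07). KRTAP5-9, KRTAP9-4, KRTAP9-8 and KRTAP12-3 were likewise called in E in deposited values, by 0.60, 0.71, 0.55 and 0.50, and not after quantile normalization. KRTAP5-AS1, an antisense RNA of the cluster, was at 25.9 in DMSO and 14.2 in DTE, a fall of 0.85 (adjusted p = 4.0e-05, quantile -0.50, adjusted p = 0.0033).

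Of the hair keratins, KRT37 (type I) was at 26.1, 38.5 and 27.6 in DMSO, 27.3, 26.3 and 26.7 in DT, 43.5, 54.6 and 49.4 in E, and 22.2, 14.4 and 22.3 in DTE. E lay above and DTE below every DMSO array. The rise of 0.69 in E (SE 0.17, adjusted p = 0.0037) had a quantile value of 0.36 (adjusted p = 0.18), and the DTE difference of -0.65 (adjusted p = 0.0018) one of -0.14 (adjusted p = 0.62).
KRT85, a type II keratin of the hair matrix and cuticle, was at 43.8, 34.4 and 31.9 in DMSO, 37.9, 30.6 and 34.3 in DT, 27.3, 44.3 and 47.8 in E, and 17.3, 20.2 and 21.9 in DTE. DTE lay below every other array. KRT85 fell by 0.88 in DTE (SE 0.18, adjusted p = 1.3e-04, quantile -0.35, adjusted p = 0.028). KRT36 and KRT31, both type I, had deposited differences in DTE of -0.48 and -0.42, called, with quantile values of -0.13 and -0.19 that were not. The pseudogene KRT42P was at 70.3, 67.1 and 55 in DMSO, 54.6, 54.4 and 59.7 in DT, 66.6, 71.8 and 86.7 in E, and 25.3, 30.6 and 49.1 in DTE. The DTE difference of -0.92 was called, and its quantile value was -0.07.

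**Figure D4:**
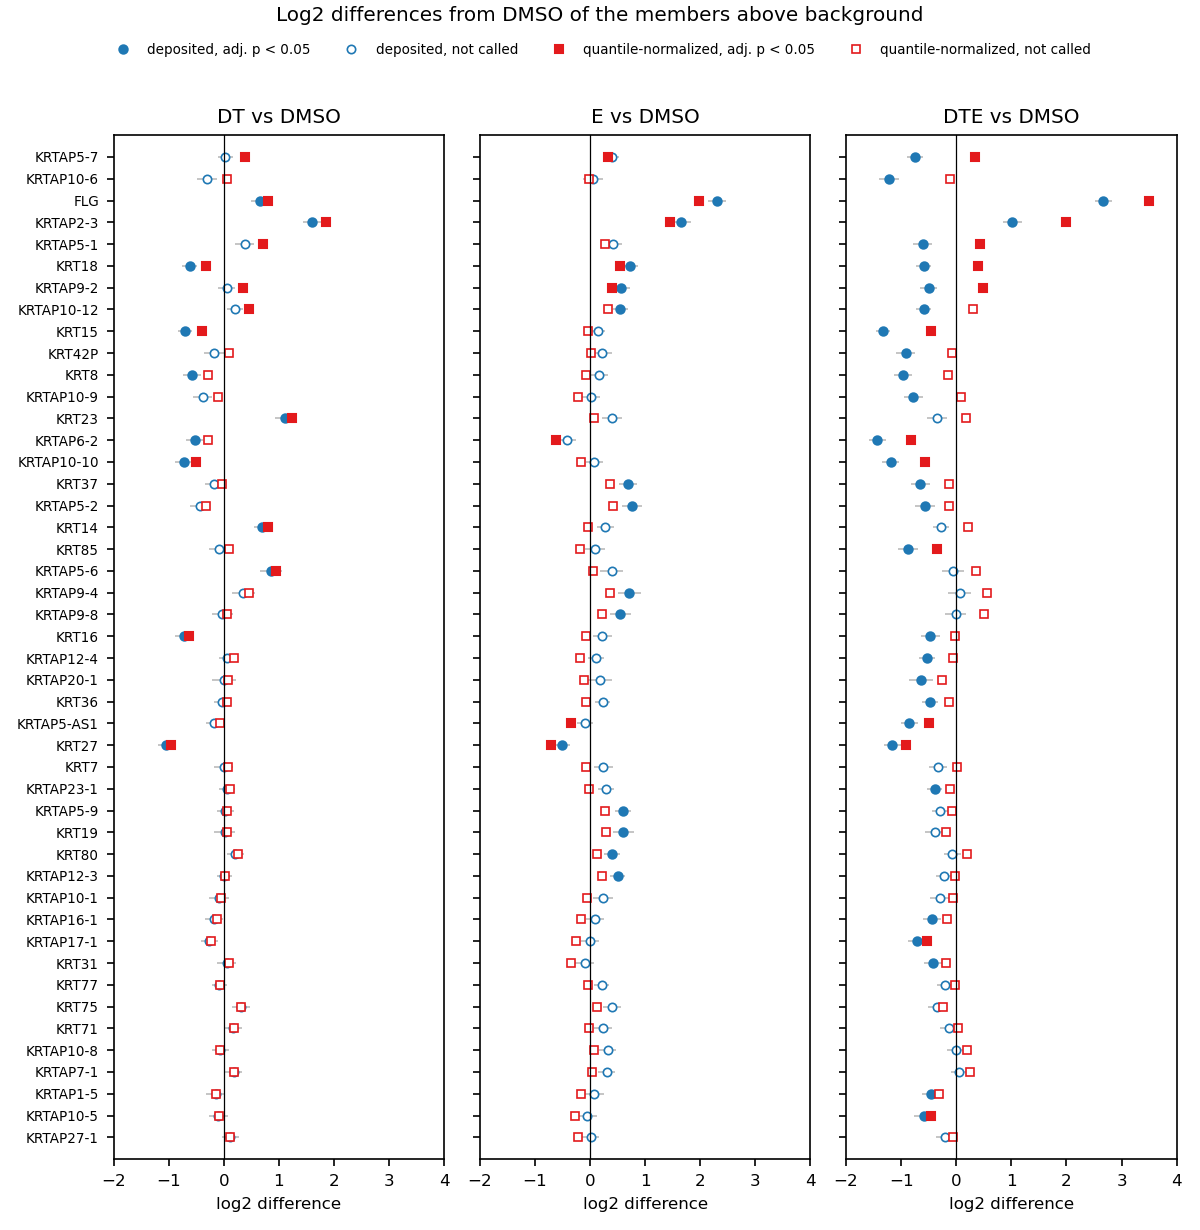
Log2 difference from DMSO of the 46 members above background in DT, E and DTE, with the SE of the fit as a bar for the deposited values. Filled marks are called (adjusted p under 0.05); circles are deposited and squares quantile-normalized values. FLG and KRTAP2-3 lie to the right in all 3 panels, KRT27 to the left, and in DTE most circles lie to the left of their squares.

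Members not above background could still be called. KRTAP19-2, a dim member of the high glycine-tyrosine group, was at 8.38 in DMSO and 5.31 in DTE. KRT33B, called higher in DT, was at 13.2 against 8.74, with 1 DT array above background. For such genes only the background is measured on most arrays, and the fitted differences do not give the size of a change.

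Genes that work with keratins and filaggrin were followed in lists. Of 44 cornified envelope genes, 42 were measured and 20 exceeded background. In E, 7 of the 42 rose, where 20.8% of all genes did, with a list median of 0.13 beside 0.14 for all genes, and after quantile normalization 3 rose, beside 15.1% of all genes. CSTA (cystatin A, a protease inhibitor of the envelope) went from 34.8 ± 2.39 (SD, n = 3) to 80.7 ± 8.17 (SD, n = 3), a rise of 1.21 (adjusted p = 7.2e-07, quantile 0.88). PPL (periplakin) rose by 0.92 (adjusted p = 3.1e-05, quantile 0.55). In DTE, 13 fell, where 60.8% of all genes did, with a median of -0.24 beside -0.54 for all genes, and after quantile normalization 1 fell and 2 rose, beside 22.4% and 20.5% of all genes. In DT 1 fell, where 23.1% of all genes did, and after quantile normalization 3 rose and 4 fell, beside 15.1% and 14.6%. Of the relatives of FLG in the list, HRNR (hornerin), RPTN (repetin) and TCHH (trichohyalin) were at background on every array, with group means between 4.76 and 10.1. CRNN (cornulin) was above background on every array, at 18.8 in DMSO and 25.3 in E, a rise of 0.44 (adjusted p = 0.038) with a quantile value of 0.12 (adjusted p = 0.56), and fell by 0.37 in DTE (adjusted p = 0.039; quantile value -0.07). TCHHL1 was above background in 2 groups, with group means between 11.7 and 15.1.

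Of 20 genes for cross-linking, filaggrin processing and barrier lipids, 10 were measured and 8 exceeded background. ELOVL4, which elongates very long fatty acids, was at 11.4, 9.42 and 9.96 in DMSO, 51, 69.5 and 82.9 in E and 23.5, 28.1 and 40.3 in DTE. It was at least 5.15-fold higher in E (adjusted p = 2.3e-10) and at least 2.31-fold higher in DTE (adjusted p = 2.0e-07), and these bounds were 3.71 and 3.41 after quantile normalization. KLK8, a skin kallikrein protease, rose by 1.00 in E (adjusted p = 1.1e-05, quantile 0.74). In all, 3 of the 10 rose in E (2 after quantile normalization), and 1 rose and 4 fell in DTE (2 and 2 after quantile normalization), beside the shares of all genes given above. In DT 1 fell, beside 23.1% of all genes.

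Of 21 desmosome and keratin anchor genes, 14 were measured and 8 exceeded background. In E, 6 of the 14 rose, beside 20.8% of all genes, with a median of 0.38, and 4 rose after quantile normalization, beside 15.1%. In DTE, 4 rose and 3 fell, beside 4.26% and 60.8% of all genes, and after quantile normalization 6 rose, beside 20.5%. In DT 1 fell, beside 23.1% of all genes, and after quantile normalization 1 rose, beside 15.1%. JUP (plakoglobin, which links desmosomal cadherins to the filament anchors) was at 85.9, 98 and 76 in DMSO, 77.6, 71.3 and 76.3 in DT, 182, 222 and 235 in E and 108, 112 and 117 in DTE. It rose by 1.30 in E (adjusted p = 1.5e-07, quantile 1.17) and by 0.38 in DTE (adjusted p = 0.018, quantile 1.43). DSG3 and DSC2, desmosomal cadherins, were at least 1.88-fold and at least 1.84-fold higher in E, from a DMSO level within the background. After quantile normalization these bounds were 1.47 and 1.44. DSP (desmoplakin, the anchor of keratin filaments) was at 12.7 in DMSO and 15.6 in E and was not called.

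Of 22 keratinocyte transcription factors, 13 were measured and 9 exceeded background. In E, 5 of the 13 rose, beside 20.8% of all genes, with a median of 0.17. After quantile normalization 5 rose and 1 fell, beside 15.1% and 16.3% of all genes. In DTE, 2 rose and 5 fell, beside 4.26% and 60.8% of all genes. After quantile normalization 4 rose and 1 fell, beside 20.5% and 22.4%. In DT 3 were lower in deposited values, beside 23.1% of all genes, and 3 after quantile normalization, beside 14.6%. GRHL1 and GRHL3, grainyhead factors of the epidermis, were at least 1.94-fold and at least 1.44-fold higher in E. GRHL3 was above background on 2 of 3 E arrays. After quantile normalization these bounds were 1.52 and 1.17. TFAP2C, an AP-2 factor, fell from 125 ± 17.5 (SD, n = 3) in DMSO to 40 ± 2.46 (SD, n = 3) in DT, by 1.64 (adjusted p = 2.8e-08, quantile -1.26).

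Of the other intermediate filament genes, 8 of 15 were measured and all 8 exceeded background. VIM (vimentin) was at 711 ± 101 (SD, n = 3) in DMSO, 574 in DT, 725 in E and 367 with DTE, and the DTE difference of -0.95 (adjusted p = 3.7e-06) had a quantile value of 0.12 (adjusted p = 0.19). NES (nestin, of neural and neural crest progenitors) rose by 1.35 in E (adjusted p = 1.8e-07, quantile 1.18). LMNB1 (lamin B1 of the nuclear lamina) fell by 1.66 in DT (adjusted p = 4.2e-08, quantile -1.28) and by 2.23 in DTE (quantile -1.23).

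All 10 measured melanocyte markers of 16 were above background in every group. Their summed intensities were 5168 to 5903 in DMSO, 4319 to 4860 in DT, 4358 to 6232 in E and 2484 to 2698 in DTE. Sums given here are of deposited values, in which the median gene differed by -0.54 in DTE. The median melanocyte marker differed by -1.23 in DTE, and by -0.29 after quantile normalization. The brightest, S100B, was at 2542 in DMSO and 1548 in DTE, with a quantile value of 0.11 (adjusted p = 0.41). Of 18 keratinocyte markers 14 were measured, and 5 were above background in DMSO and in DT and 6 in E and in DTE. Their summed intensities were 206 to 220 in DMSO, 205 to 221 in DT, 253 to 305 in E and 171 to 182 in DTE. KRT14, SFN, S100A2, CALML3 and CALML5 were above background in every group and DSG3 in E and DTE. KRT5, KRT1, KRT10, DSC3, PKP1, TRIM29, IVL and SPRR1B were above it in no group. In E, 3 of the 14 rose, beside 20.8% of all genes. These were DSG3, SFN (0.89, quantile 0.53) and S100A2 (0.68, quantile 0.42, the latter not called). After quantile normalization 2 of the 14 rose and 2 fell, beside 15.1% and 16.3% of all genes. Of 14 simple epithelium markers 7 were measured, with sums of 140 to 175 in DMSO, 127 to 148 in DT, 196 to 223 in E and 118 to 120 in DTE. Both fibroblast markers measured, DCN and LUM, were at background by the rule in DMSO, DT and E, and LUM was above it in DTE. LUM was at 6.41 in DMSO, 13.8 in E and 11.8 in DTE, above background on 1 E and 1 DTE array. The background was 14.1 to 16.2 on the E arrays and 11.1 to 12.2 on those of DTE. LUM was called higher in E (1.11, quantile 0.88) and in DTE (0.88, quantile 1.07). The part of other cell types in the members' values was not tested.

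The members lie in clusters, 55 on chromosome 17, 43 on chromosome 21, 22 on chromosome 12, 12 on chromosome 11 and 2, FLG and FLG2, on chromosome 1. RefSeq promoters were matched for 105 of the 134 members, with 1 promoter kept per symbol. The set of all promoters was taken as listed, without that step. Over the 250 bases before the start, on both strands, TATAAA was present in 68.6% of member promoters and in 10.7% of all 35116 promoters of the same length. The GC box letters GGGCGG were present in 4.76% and 42.6%, and TGANTCA in 7.62% and 6.57%. TATAAA was present in 21 of 31 promoters of members above background and in 51 of 74 of the others. It was present in 4 of 11 promoters of type II epithelial keratins and 16 of 19 of ultrahigh-sulphur KRTAPs. TGANTCA was found in 8 members, FLG, FLG2, KRTAP27-1, KRTAP3-2, KRTAP4-5, KRTAP4-6, KRTAP4-12 and KRTAP19-5, of which FLG was called higher in every treatment, KRTAP27-1 was called in no comparison with DMSO and the others were at background. Members of a cluster share ancestry, so their promoters are not independent.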

How the data were processed

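The authors deposited linear intensities, 1 per probe set and array. The submitters' processing notes name RMA and Transcriptome Analysis Console, without versions. How the arrays were rescaled, and the genome build, are not given in the sources here. ERCC spike-in was added before extraction, per the labels' protocols. Here log2 was taken of the deposited intensities, with no pseudocount and no filter. Of 29398 probe sets, 14750 (50.2%) had a gene name in the platform table, and 14648 were not used. Where a gene had several (156 genes, no member), the brightest was kept.

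A single limma model (version 3.58.1 under R 4.3.3, with lmFit and eBayes) held the 4 group means of the 12 arrays. Adjustment was by Benjamini-Hochberg over 14582 genes, with a threshold of 0.05. A fold given as "at least" sets the brighter group's mean against the higher of the background level and the dimmer group's own value. Members were matched to RefSeq promoters by symbol. The procedure was tested on simulated data. Alternatives were quantile normalization, median centring, a filter on dim genes, log2(value + 8), other variance models, array weights, other background levels, fits of the groups compared only, a replicate block and leaving out each array.

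The members and lists were chosen with earlier results of these data known. The rule names any member called or above background, with array values for the up to 15 brightest and those called in several comparisons. Array values are given here for FLG, KRTAP2-3 and other members chosen after their values were seen, and not for each member called in several comparisons.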

Additional observations from a re-analysis of the deposited data

Results flagged for a closer look

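The effect of entinostat differed between cells with and without dabrafenib and trametinib for 42 members in deposited values, by the limma interaction test over all genes. All 42 were below 0 (31.3% of members, where 62.5% of all genes were called below 0). Of the 46 members above background, 30 were called below 0. With genes at background left out of the test, 31 of these 46 and 8965 of 11329 genes were called below 0. After quantile normalization the effect differed for 3 members, 1 above and 2 below 0, where 2.08% and 2.12% of all genes were called. Among these, KRTAP2-3 had an interaction of -2.24 and KRT23 one of -1.86 in deposited values. Both were smaller in size after quantile normalization, as given above. For KRTAP2-3, entinostat came with a rise of 1.65 without the other agents and with a difference of -0.58 in their presence (0.14 after quantile normalization). For KRT23 the corresponding values were 0.40 and -1.46 (0.08 and -1.06 after quantile normalization). The cause was not tested.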

How the results depend on the processing

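Scaling between arrays moved most results. After quantile normalization 23 members were called in DTE against DMSO, 14 in DTE against DT, 7 in DTE against E and 3 in the interaction, and among all genes 6261, 4993, 2923 and 612. With the filter on dim genes as well, an alternative chosen after seeing the data, these were 17, 10, 3 and 3 members. The genes were 6124, 5011, 3163 and 795. In E against DMSO this alternative called 8 members and 4699 genes. Median centring called 26 members and 4861 genes in DT against DMSO, 87 members and 10142 genes in DTE against DMSO, and 33 members and 2540 genes in the interaction. Array weights called 47 members and 7226 genes in E against DMSO and 48 members and 9739 genes in DTE against DT. The filter on dim genes alone left 42 members and 10740 genes called in DTE against E, since members at background are then not tested. Background taken from the dimmest 50% of genes, or set at the array median, left 19 members above it.

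Of 98 called differences of the members given with array values, 21 changed sign after quantile normalization, with or without the filter, and 17 after median centring. After quantile normalization, DTE minus DMSO was 0.34 for KRTAP5-7, 0.43 for KRTAP5-1, 0.39 for KRT18, 0.48 for KRTAP9-2, 0.31 for KRTAP10-12 and 0.09 for KRTAP10-9. DTE minus DT was 0.14 for KRTAP2-3, 0.13 for KRTAP9-2 and 0.14 for KRT8. DTE minus E was 0.02 for KRTAP5-7, 0.54 for KRTAP2-3, 0.16 for KRTAP5-1, 0.09 for KRTAP9-2, 0.31 for KRTAP10-9, 0.10 for KRT23, 0.24 for KRT14, 0.28 for KRTAP5-6 and 0.04 for KRT16. The interaction was 0.16 for KRT18, 0.21 for KRT8 and 0.11 for KRTAP10-10. After median centring, DTE minus DMSO was 0.03 for KRTAP5-1, 0.06 for KRT18, 0.15 for KRTAP9-2, 0.05 for KRTAP10-12, 0.08 for KRTAP5-2 and 0.17 for KRT16. DTE minus DT was 0.05 for KRT8. DTE minus E was 0.30 for KRTAP2-3, 0.14 for KRTAP10-9, 0.18 for KRT23, 0.37 for KRT14, 0.48 for KRTAP5-6, 0.23 for KRT16 and 0.28 for KRT27. The interaction was 0.04 for KRT18, 0.18 for KRT8 and 0.18 for KRTAP10-10. The cause was not tested.

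Leaving out each array in turn gave 12 to 15 members called in DT against DMSO, 10 to 23 in E, 30 to 41 in DTE, 26 to 36 in DTE against DT, 51 to 65 in DTE against E and 31 to 47 in the interaction. Among all genes it gave 3002 to 4688, 2927 to 4296, 8647 to 9764, 7252 to 8816, 10807 to 11723 and 7714 to 10207, and 44 to 49 members were above background. It ended 16 of the 98 calls and turned the direction of 0. Same-numbered arrays of different groups deviated together in no regular way (r from -0.22 to 0.13), so the numbers were not taken to pair them. With the replicate block the counts of members called were 13, 17, 37, 32, 62 and 39, beside 3749, 3387, 9283, 8197, 11393 and 8738 genes. Values near the background understate differences, and 88 members lie there.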
